A study of Homo sapiens with 4 samples.

Results

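The replication-dependent histone genes were 69 protein-coding genes of the 19970 on chromosomes 1 to 22 and X in the GENCODE 44 annotation. The rule used symbol and chromosome and no peak value, and the set comprised 6 linker histone H1 genes, 17 H2A, 18 H2B, 13 H3 and 15 H4 genes. Their starts fell into 36 start groups, in which neighbouring starts lay less than 5 kb apart, and into 7 clusters, in which neighbouring starts lay less than 200 kb apart. Since neighbours often lay under the same peak, genes were counted and then start groups were counted once each.

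ZNF217, a zinc finger transcription factor, was mapped by CUT&Tag, in which a transposase tethered to the antibody cuts and tags the nearby DNA. The study used untreated MV4-11 and U937 cells, established human leukemia lines, and labelled 4 samples, a ZNF217 and an IgG library of each line. The IgG libraries were not analysed here, and whether they served as the control when the peaks were called is not given in the sources used here. The ZNF217 lists held peak positions without heights or read counts, with 36356 peaks in MV4-11 and 21737 in U937 on chromosomes 1 to 22 and X, from 1 library per line. Depth is unknown, the identity of the cells cannot be checked from peak positions, and a difference between the lines cannot be told apart from a difference between 2 libraries. No p-value was calculated, and the intervals given are exact 95% intervals that cover counting error only. Intervals over genes count neighbours under the same peak separately, and can therefore be too narrow.

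Replication-dependent histone genes supply the core histones H2A, H2B, H3 and H4 and the linker histone H1 that package newly copied DNA. They are transcribed mainly in S phase from multiple gene copies that lie together at histone locus bodies, where the factor NPAT is concentrated. Their short messages usually end in a stem loop rather than a poly(A) tail, and H2A and H2B genes are often arranged head to head around a shared promoter.

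The promoters of 1 gene of each type are shown because they carried the widest ZNF217 peaks of their type when the narrower of the 2 lines was used, and that of H2AC1 because it was the first gene in genome order without a peak in either line. The sequences are from the RefSeq promoter table on GRCh38.p14, 250 bases before to 50 after the start, written 5′ to 3′ along the gene. Capitals mark the octamer ATTTGCAT, the CCAAT box, the TATA box TATAAA, the H1 box AAACACA and the H4 element GGTCCG, each on either strand, with overlapping matches run together.
H1-3, linker histone, chr6:26234938-26235237, minus strand: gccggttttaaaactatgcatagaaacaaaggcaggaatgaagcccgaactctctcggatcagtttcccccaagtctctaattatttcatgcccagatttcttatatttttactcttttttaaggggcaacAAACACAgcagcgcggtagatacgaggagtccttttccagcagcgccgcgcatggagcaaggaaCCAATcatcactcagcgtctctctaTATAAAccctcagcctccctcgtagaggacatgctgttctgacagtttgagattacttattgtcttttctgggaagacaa
H2AC19, H2A, chr1:149850811-149851110, plus strand: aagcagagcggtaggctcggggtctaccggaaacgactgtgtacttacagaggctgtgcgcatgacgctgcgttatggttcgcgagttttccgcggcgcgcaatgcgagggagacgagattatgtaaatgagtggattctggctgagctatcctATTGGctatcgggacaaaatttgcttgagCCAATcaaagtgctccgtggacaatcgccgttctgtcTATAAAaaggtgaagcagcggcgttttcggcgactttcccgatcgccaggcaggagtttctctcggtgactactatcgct
H2BC11, H2B, chr6:27132746-27133045, minus strand: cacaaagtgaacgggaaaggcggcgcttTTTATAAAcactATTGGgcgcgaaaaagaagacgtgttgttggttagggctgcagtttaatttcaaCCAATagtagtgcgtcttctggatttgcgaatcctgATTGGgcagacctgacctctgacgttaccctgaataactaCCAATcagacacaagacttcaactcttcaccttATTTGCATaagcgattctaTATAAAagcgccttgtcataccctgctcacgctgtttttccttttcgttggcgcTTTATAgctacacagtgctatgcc
H3C15, H3, chr1:149852358-149852657, plus strand: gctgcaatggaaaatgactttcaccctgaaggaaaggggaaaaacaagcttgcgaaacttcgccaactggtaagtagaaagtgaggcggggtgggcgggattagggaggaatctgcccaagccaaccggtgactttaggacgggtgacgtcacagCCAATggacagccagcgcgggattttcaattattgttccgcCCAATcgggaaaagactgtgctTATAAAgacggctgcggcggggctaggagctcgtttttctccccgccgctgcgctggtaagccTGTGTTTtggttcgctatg
H4C8, H4, chr6:26285485-26285784, minus strand: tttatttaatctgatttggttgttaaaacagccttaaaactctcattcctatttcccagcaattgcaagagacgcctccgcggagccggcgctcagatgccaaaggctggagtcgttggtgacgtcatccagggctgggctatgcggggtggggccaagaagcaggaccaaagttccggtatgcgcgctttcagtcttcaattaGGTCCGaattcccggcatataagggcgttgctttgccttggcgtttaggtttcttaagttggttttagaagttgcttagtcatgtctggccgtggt
H2AC1, H2A without a peak, chr6:25726513-25726812, minus strand: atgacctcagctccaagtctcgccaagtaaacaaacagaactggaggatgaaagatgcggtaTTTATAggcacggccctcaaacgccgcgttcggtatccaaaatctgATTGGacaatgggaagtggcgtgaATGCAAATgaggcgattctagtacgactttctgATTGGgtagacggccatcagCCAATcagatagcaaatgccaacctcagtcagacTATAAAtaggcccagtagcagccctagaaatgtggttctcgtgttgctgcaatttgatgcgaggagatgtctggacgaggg

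All of these promoters but that of H2AC1 were chosen for wide peaks, so the widths given here follow from that choice. The H1-3 start lay under an MV4-11 peak of 1790 bp and a U937 peak of 1842 bp. H2AC19 and H3C15 lay under the same peak, 4511 bp wide in MV4-11 and 4310 bp wide in U937, in repeated sequence that is described below. The H2BC11 peak spanned 3385 and 3452 bp, and the H4C8 peak spanned 2775 and 2425 bp. The H2AC1 promoter held an octamer, 3 CCAAT boxes and 2 TATA boxes, so the letters seen at occupied H2A and H2B promoters were also present where no peak was called.

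ZNF217 peaks lay at nearly all of these promoters in MV4-11 and at most of them in U937. A peak within 1 kb of an annotated start was found at 66 of 69 genes in MV4-11 (95.7%, interval 87.8 to 99.1), against 59.0% of all protein-coding genes. In U937 it was found at 50 of 69 (72.5%, 60.4 to 82.5), against 50.5%. The 50 genes with a U937 peak all had an MV4-11 peak too, so that 72.5% were occupied in both lines, against 47.4% of all protein-coding genes. A further 16 (23.2%, 13.9 to 34.9) had a peak in MV4-11 only, against 11.6%, and 0 of 69 in U937 only (upper bound 5.21%), against 3.10%. The 3 genes without a peak in either line were H2AC1, H2BC1 and H4C7, against 37.9% of all protein-coding genes. Counted by start group, 35 of 36 (97.2%, 85.5 to 99.9) had a peak in MV4-11 and 27 of 36 (interval 57.8 to 87.9%) in U937. Start groups were not formed for other genes, so these shares have no background of the same kind. With lists of equal length, made of the widest 21737 peaks of each line, 63 genes had a peak in MV4-11 and 50 in U937. Of all 19970 protein-coding genes, 10381 and 10091 had a peak in these lists.

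The types had similar shares in MV4-11, and in U937 their intervals were too wide to set one type apart from another. All 6 H1 and all 13 H3 genes had a promoter peak in MV4-11, with 16 of 17 H2A, 17 of 18 H2B and 14 of 15 H4 genes. In U937, peaks were found at 13 of 17 H2A (76.5%, 50.1 to 93.2), 14 of 18 H2B (77.8%), 10 of 13 H3 (76.9%) and 10 of 15 H4 genes (66.7%, 38.4 to 88.2). The lowest share was that of the linker histones, with 3 of 6 (interval 11.8 to 88.2%), and its interval overlapped those of the core histones. H1-2, H1-3 and H1-4 had peaks in both lines, and H1-1, H1-5 and H1-6, of which H1-6 is the testis linker histone, had them in MV4-11 only.

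**Figure D1:**
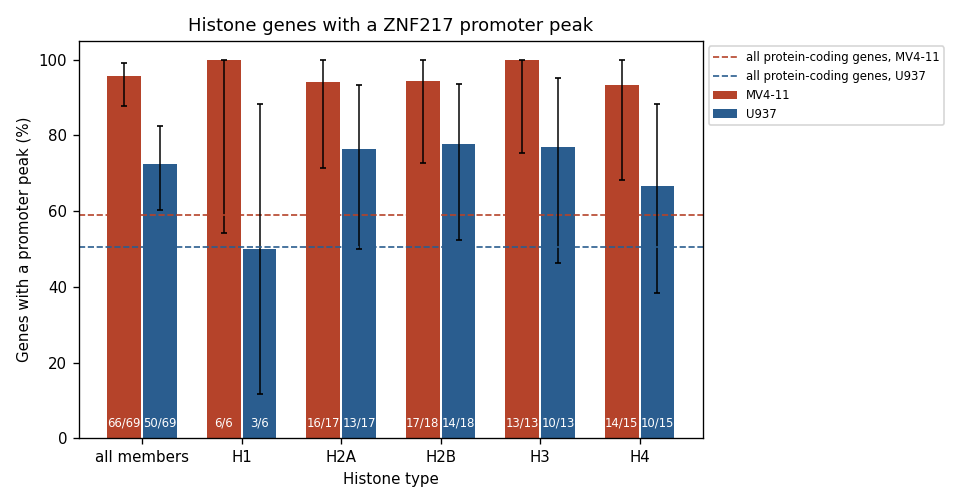
Share of genes with a ZNF217 promoter peak (vertical axis, percent) for all 69 histone genes and for each histone type, in MV4-11 (red) and U937 (blue), with exact 95% intervals as error bars, counts at the foot of the bars and the share of all protein-coding genes as dashed lines. The MV4-11 bars stand between 93.3% and 100%, and the U937 bars run from 3 of 6 for H1 to 77.8% for H2B.

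Genes without a peak were counted along the clusters, and in MV4-11 only H2AC1, H2BC1 and H4C7 went without one. In the cluster of 11 genes in 75.6 kb of chromosome 1 (chr1:149812373-149887965), every gene had a promoter peak in both lines. The pair H2AC25 and H2BC26, further along chromosome 1 (chr1:228457873-228458103), also had a peak in both. All genes without a U937 peak thus lay on chromosomes 6 and 12. Of the 32 genes in the largest cluster, 268 kb of chromosome 6 (chr6:26017787-26285638), 31 had a peak in MV4-11 and 22 in U937. All 5 genes of the small cluster on chromosome 6 (chr6:27132795-27147106, 14.3 kb) had a peak in both lines. The last cluster on chromosome 6 (chr6:27807929-27893425, 85.5 kb) had peaks at all 16 genes in MV4-11 and at 10 in U937. The U937 interval of this cluster (35.4 to 84.8%) overlapped that of the large chromosome 1 cluster (71.5 to 100%) and included the 50.5% of all protein-coding genes, so the clusters were not set apart by their shares. Counted by start group, the intervals were wider, 22.3 to 95.7% (4 of 6) and 54.1 to 100% (6 of 6).

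The remaining clusters were small. H2AC1 and H2BC1, the testis H2A and H2B pair at the start of the chromosome 6 genes (chr6:25726562-25726777), lacked a peak in both lines. H4C16, the single H4 gene on chromosome 12, had a peak of 1546 bp in MV4-11 and none in U937, where the nearest peak lay 3.81 kb from its start. H4C7, the third gene without a peak, is an H4 gene inside the largest cluster, with peaks at its neighbours H3C7 and H2BC9 in both lines.

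**Figure D2:**
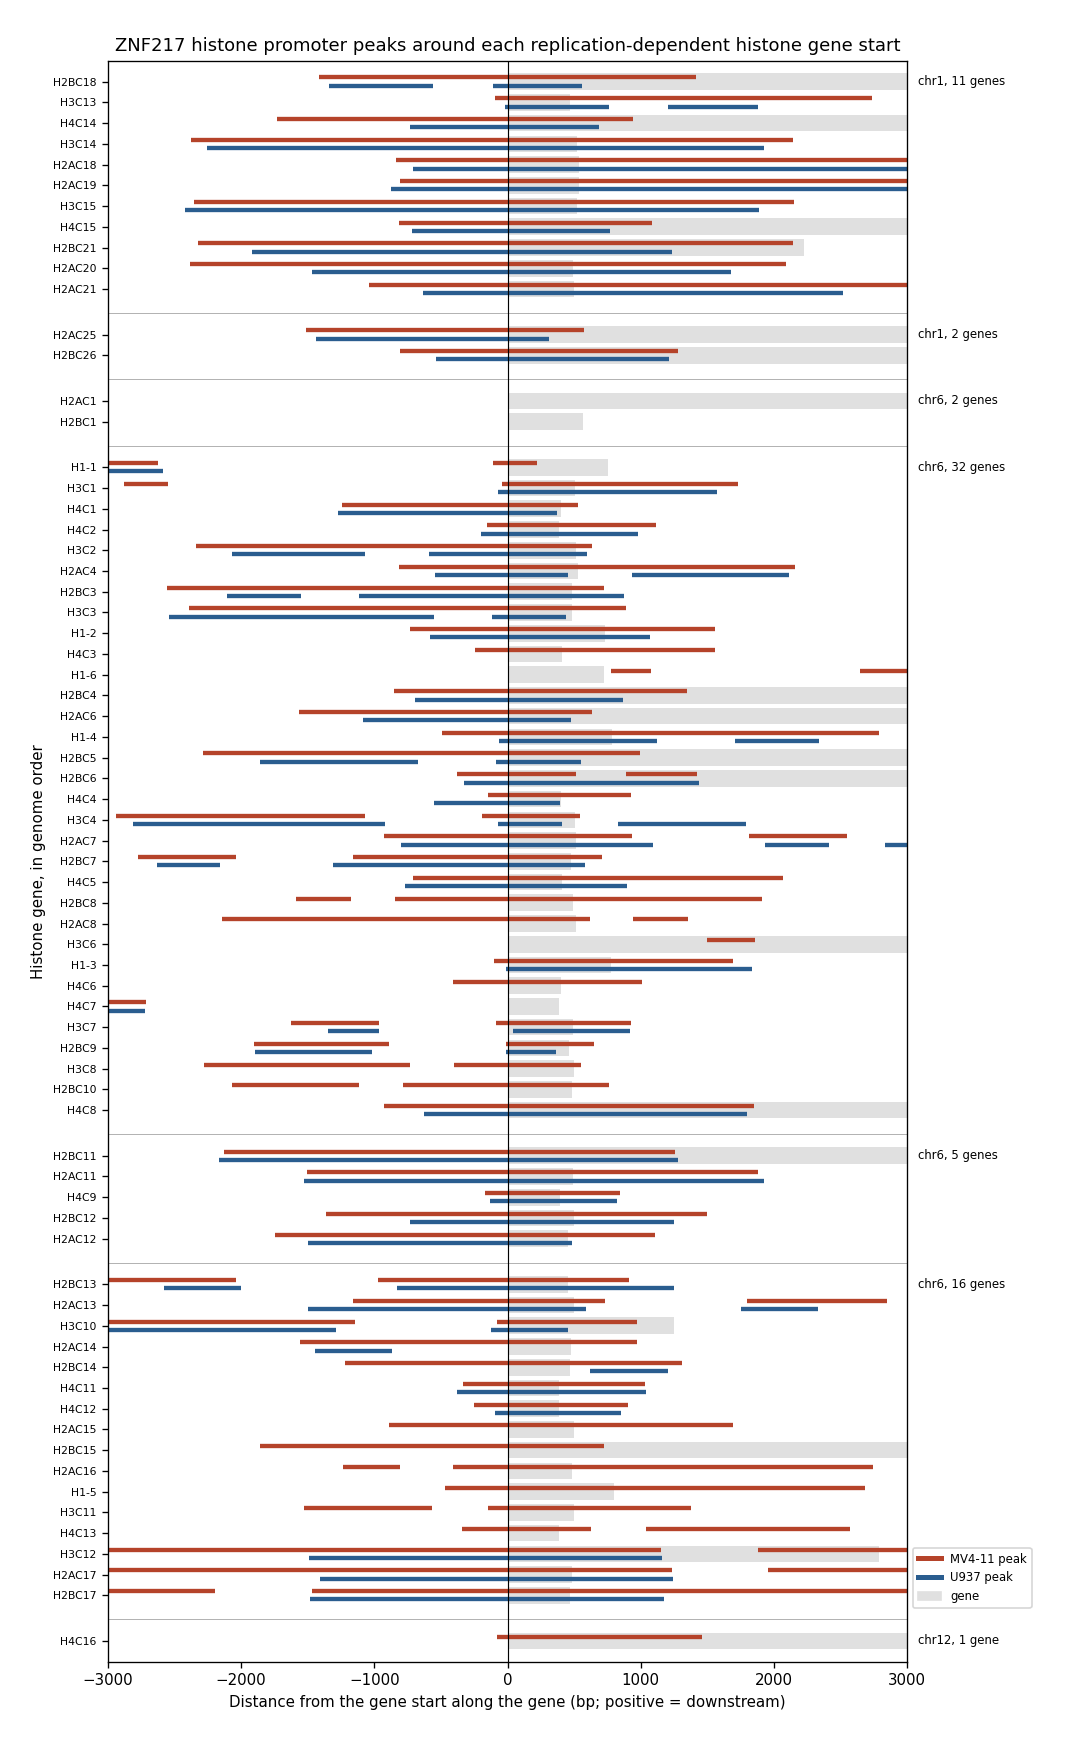
ZNF217 peaks over the promoters of the 69 histone genes, drawn by distance from each gene start along the gene (horizontal axis, bp, cut at 3 kb each side), with one line of the plot per gene in genome order, MV4-11 peaks in red, U937 peaks in blue and genes in grey; a peak is drawn again at each gene within reach. A red bar crosses the start of 64 genes and a blue bar that of 47, and the stretch from H2AC15 to H4C13 has red bars only.

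Genes that lacked a U937 peak were often neighbours, in part because genes of a start group can share a peak. Counted by start group, 8 of 36 had a peak in MV4-11 only, and whether these groups lay together was not tested. The longest stretch of genes without a U937 peak held 6 genes in 2 start groups of the last chromosome 6 cluster. These were H2AC15, H2BC15, H2AC16, H1-5, H3C11 and H4C13, over 35159 bp (chr6:27838375-27873534). All 6 had MV4-11 peaks. The peak over H2AC15 and H2BC15 spanned 2584 bp, that over H2AC16 and the linker histone gene H1-5 spanned 3152 bp, and the peaks over H3C11 and H4C13 spanned 1529 and 963 bp. The nearest U937 peak lay 6.72 kb from the H2AC15 start and 26.6 kb from the H2AC16 start. On either side of this stretch U937 peaks were present, at H4C12 (948 bp) and at H3C12, H2AC17 and H2BC17 (2652 bp).

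In the largest cluster the genes without a U937 peak were spread over several short stretches. H2BC8 and H2AC8, a head-to-head pair, lay under an MV4-11 peak of 2762 bp, with the nearest U937 peak 11.2 kb from the H2BC8 start. The H3C8 start lay under an MV4-11 peak of 953 bp and the H2BC10 start under another of 1551 bp, with U937 peaks 12.4 and 10.9 kb away. The MV4-11 peak of H4C3 spanned 1807 bp and that of H4C6 spanned 1422 bp, with U937 peaks 19.1 and 5.40 kb away. The other MV4-11 peaks of this kind were narrow, with 332 bp at H1-1, 301 bp at H1-6 and 360 bp at H3C6, and at H1-6 and H3C6 they did not reach the gene start.

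The absence of a U937 peak was not confined to narrow MV4-11 peaks. The widest MV4-11 promoter peak had a median of 1551 bp (301 to 3152) over the 16 genes occupied in MV4-11 only, and 2603 bp (738 to 4524) over the 50 occupied in both. Among other protein-coding genes these medians were 671 bp for 2291 genes and 1183 bp for 9422 genes. Of the 38 histone genes with an MV4-11 promoter peak of 2 kb or more, 6 had no U937 promoter peak (15.8%, 6.02 to 31.3), against 6.71% of all protein-coding genes with such a peak. These 6 genes lay in 3 start groups (H2BC8 and H2AC8, H2AC15 and H2BC15, H2AC16 and H1-5), and are not separate cases.

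Histone promoter peaks were wide, and most of all where they covered several genes. The 50 distinct MV4-11 peaks had a median width of 1780.5 bp (interval of the median 1272 to 2294) and a range of 301 to 4524 bp, against 872 bp for the 14587 other promoter peaks. The 37 distinct U937 peaks had a median of 1422 bp (962 to 1750) and a range of 377 to 4310 bp, against 863 bp for 10610 others. A width of 2 kb or more was reached by 20 MV4-11 peaks (40.0%, against 9.69% of the others) and by 7 U937 peaks (18.9%, against 5.89%). Every one of the 37 U937 peaks (interval 90.5 to 100%) overlapped an MV4-11 peak, against 87.0% of other U937 promoter peaks. The share was 94.3% for other U937 peaks over 1 gene start and 98.1% for those over 2 or more, both inside that interval. In the opposite direction a U937 peak lay over 33 of 50 MV4-11 peaks (66.0%, 51.2 to 78.8), and over 62.5% of the others. With peaks divided by the gene starts they covered, the histone share was the lower. Over 1 start it was 66.7% (44.7 to 84.4) against 80.2%, and over 2 or more it was 84.2% (60.4 to 96.6) against 91.4%. Both intervals included the share of the other peaks.

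Peaks over several gene starts were wider than peaks over 1 start. In MV4-11 the 24 peaks over 1 histone start had a median of 1319.5 bp (1013 to 1790), and the 19 peaks over 2 or more had a median of 2859 bp (2196 to 3385). In U937 the medians were 1177 bp (779 to 1491) for 23 peaks and 2088 bp (1644 to 4181) for 11 peaks. Peaks of other genes differed less by the same division, with medians of 1057 and 1267 bp in MV4-11 and 984 and 1140.5 bp in U937. For peaks over 1 start, the interval of the histone median included the median of other genes in both lines. A peak that reaches several starts has to be at least as long as the distance between them, so this division is a description of layout.

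**Figure D3:**
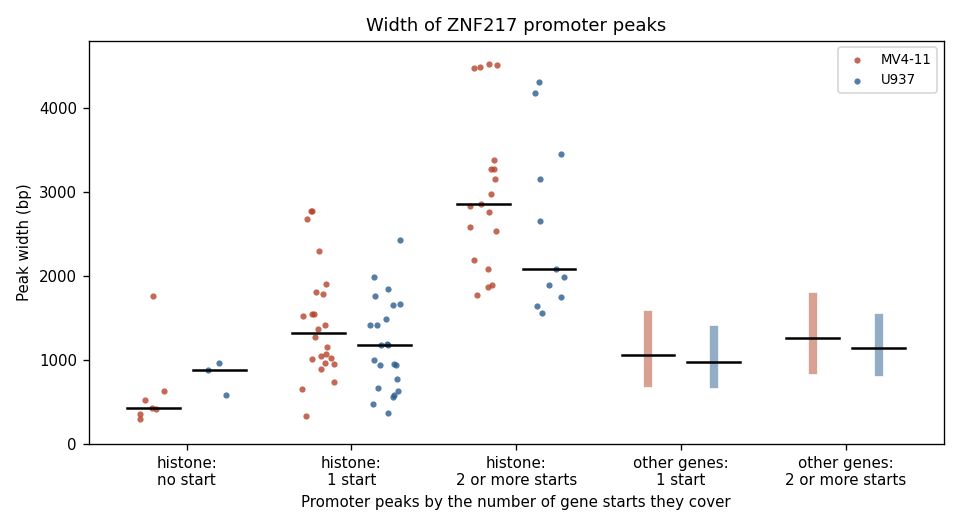
Width of ZNF217 promoter peaks (vertical axis, bp) by the number of gene starts they cover, with each histone peak as a point, medians as black lines, and the middle 50% of the peaks of other genes as bars, for MV4-11 (red) and U937 (blue). Histone peaks over 2 or more starts lie between 1557 and 4524 bp, and their medians are 2859 bp (MV4-11) and 2088 bp (U937).

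By type, the median width was highest at H2A and then H2B genes in both lines, with a peak shared by 2 types counted for each, but the intervals overlapped. The MV4-11 medians were 2762 bp for H2A (interval 2089 to 3385), 2363.5 bp for H2B (1551 to 2859), 2042 bp for H1 (301 to 3279), 1551 bp for H3 (963 to 2972) and 1484 bp for H4 (1078 to 2675). In U937 they were 1984 bp for H2A (1184 to 3452), 1758.5 bp for H2B (671 to 2088), 1654 bp for H1 (1191 to 1842), 1073 bp for H3 (558 to 2652) and 1421.5 bp for H4 (948 to 1666). The widest single peaks, over H3C14 with H2AC18 and over H2AC19 with H3C15, each covered an H2A and an H3 gene. H4 genes were mostly alone in their start group and no H2A gene was. Over start groups of 1 gene the median of the widest peak was 1484 bp in MV4-11 and 1491 bp in U937, and over groups of 2 or more it was 2835 and 1938.5 bp.

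Head-to-head histone pairs under a single peak were counted beside other divergent pairs, and the shares were close. There were 13 divergent pairs with starts less than 1 kb apart, of which 12 joined an H2A and an H2B gene with starts 170 to 251 bp apart, and the other joined H3C7 and H2BC9, 979 bp apart. A single peak covered both starts in 11 of the 13 pairs in MV4-11 and in 8 in U937, and the 8 were among the 11. Of 811 other divergent protein-coding pairs, 80.5% lay under 1 peak in MV4-11 and 68.9% in U937. The median width of the peaks over histone pairs was 2584 bp for MV4-11 (1866 to 4491) and 2036 bp for U937 (1557 to 3452).

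The pairs differed in how far the peak of one line matched that of the other. At H2BC11 and H2AC11 the peak ran from 27131538 to 27134923 on chromosome 6 in MV4-11 and from 27131513 to 27134965 in U937, 3385 and 3452 bp. H2AC7 and H2BC7 had peaks of 1866 and 1893 bp, and H2BC13 and H2AC13 had peaks of 1890 and 2088 bp. At H2BC21 and H2AC20 the MV4-11 peak was the wider, with 4469 against 3152 bp, as at H2AC17 and H2BC17 with 4491 against 2652 bp. At H2AC14 and H2BC14 an MV4-11 peak of 2531 bp covered both starts, while the U937 peak of 584 bp began 621 bp beyond the H2BC14 start and covered neither.

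The peaks lay over the gene bodies as well as the starts. A peak covered the annotated start of 64 of 69 genes in MV4-11 (92.8%, 83.9 to 97.6), against 44.3% of all protein-coding genes, and of 47 in U937 (68.1%, 55.8 to 78.8), against 34.8%. A promoter peak missed the start itself at H1-6 and H3C6 in MV4-11 and at H3C7, H2AC14 and H2BC14 in U937. Of the 51 histone genes shorter than 1 kb, 48 had a covered start in MV4-11 and 33 in U937, and at 47 and 27 of them the same peak ran past the end of the gene. Such genes are shorter than the median histone promoter peak (1780.5 and 1422 bp), so a covered start makes this likely. Other short genes were not counted, so these counts have no background.

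Genes with no other protein-coding start within 5 kb showed how the peaks were placed along a single gene. Of 13 such genes, 12 had a covered start in MV4-11 and 11 in U937. The peaks reached a median of 395 bp upstream and 1021.5 bp downstream of the start in MV4-11, and 552 and 898 bp in U937. The downstream arm was the longer at 11 of 12 genes (91.7%) in MV4-11 and at 9 of 11 (81.8%) in U937, against 63.0% of 5579 and 65.0% of 4241 other such genes. At the linker histone gene H1-3 the MV4-11 peak reached 99 bp upstream and 1691 bp downstream, and the U937 peak 9 and 1833 bp. At the H4 gene H4C9 the arms were 173 and 847 bp in MV4-11 and 135 and 821 bp in U937. H4C14 in MV4-11, with 1735 bp upstream and 940 bp downstream, was an exception.

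Between the lines, edges over all covered histone genes lay further apart in the median than at other genes, but the upstream edges of lone genes did not. Over the 47 histone genes with a covered start in both, the upstream edges differed by a median of 152 bp and the downstream edges by 252 bp, against 131 and 158 bp over 6335 other genes. The MV4-11 peak was the wider at 38 of the 47 (80.9%), with a median ratio of 1.39, against 62.9% and 1.10 for other genes. Genes under the same peak share this value and are not separate cases. Among the 11 lone genes covered in both lines, the MV4-11 peak was wider at 8 (72.7%) and the median ratio was 1.14, against 61.3% and 1.10 for other lone genes. The upstream edges of these 11 differed by a median of 98 bp and the downstream edges by 252 bp, against 125 and 170 bp.

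Reads from near-identical copies limit what can be said of part of the chromosome 1 cluster. H4C14, H4C15, H3C14 and H3C15 had 100% of their 50-base windows within 1 kb of the start repeated elsewhere in hg38, H2AC18 and H2AC19 had 87.8% and 87.7%, and H3C13 and H2BC18 had 73.7% and 64.0%. The mirrored peaks over H3C14 and H2AC18 (4524 bp in MV4-11, 4181 bp in U937) and over H2AC19 and H3C15 (4511 and 4310 bp) are therefore uncertain as separate peaks, since a read from one copy could be placed at the other. All 8 genes with more than 50% repeated windows had peaks in both lines. The other 61 genes had peaks at 58 in MV4-11 (95.1%) and 42 in U937 (68.9%, 55.7 to 80.1). Elsewhere repeats reached 23.6% at H4C11 and 22.3% at H4C12.

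Outside histone promoters the clusters held few U937 peaks. The cluster spans contained 78 MV4-11 peaks, of which 50 lay at histone promoters and 28 elsewhere, and 39 U937 peaks, of which 37 lay at histone promoters and 2 elsewhere. Besides these histone promoter peaks, 14587 of all 36356 MV4-11 peaks and 10610 of all 21737 U937 peaks lay at protein-coding promoters. The MV4-11 list was the longer, and many of its peaks elsewhere in the clusters were narrower than 530 bp. That was the narrowest MV4-11 peak kept in lists of equal length, so these counts do not compare the lines at equal length. None of the peaks elsewhere was at the promoter of another protein-coding gene or at a tRNA gene, and 1 MV4-11 peak lay over the pseudogene H1-12P, where it overlapped a U937 peak that reached the H3C4 promoter. In the large chromosome 1 cluster, which includes the repeated copies, 10 of 16 MV4-11 peaks were away from histone promoters, against 0 of 7 in U937. One further region was occupied in both lines by peaks that were both away from promoters, from 26125332 to 26126621 on chromosome 6 in MV4-11 and from 26125559 to 26126257 in U937. It lies beyond the H2AC6 start, within the annotated H2AC6 gene. Peaks covered 33.0% of the chromosome 1 span in MV4-11 and 19.6% in U937, and 27.4% and 6.84% of the last chromosome 6 span.

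The promoters carried the sequence elements for which each histone type is known. Of the 69 genes, 64 had an entry in the RefSeq promoter table of 35116 promoters, and no entry was used for H4C1, H4C3, H2AC12, H3C11 and H3C12. Motifs were searched on both strands. The CCAAT box, bound by NF-Y, was in all 6 H1, 16 H2A, 18 H2B and 11 H3 promoters and in 3 of 13 H4 promoters, against 34.6% of all promoters. The octamer ATTTGCAT, bound by the POU factor encoded by POU2F1, was in 11 of 16 H2A and 14 of 18 H2B promoters, 1 of 11 H3 and none of the H1 or H4 promoters, against 1.77%. The H3 promoter was that of H3C4, with its octamer and CCAAT boxes at the same offsets as those of H2AC7. The annotated starts of these 2 genes differ (26197286 and 26199293 on chromosome 6). The H3C4 entry may therefore be the H2AC7 promoter, and the H3 motif counts and GC content may include an H2A promoter. The octamer lay at a median of 49 bases before the start in H2B promoters and 192 bases before it in H2A promoters. Since paired genes share the sequence between them, some of these are the same letters counted for both genes.

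The H1 box was most frequent in H1 promoters and GGTCCG in H4 promoters. The H1 box AAACACA was in 6 of 6 H1 promoters, 2 of 11 H3 and 1 of 16 H2A promoters, against 5.64% of all promoters. GGTCCG, part of the H4 element bound by HINFP, was in 12 of 13 H4 promoters, 44 to 47 bases before the start, and in 1 promoter each of H2A, H2B and H3, against 11.3%. TATAAA was in 42 of 64 (65.6%, against 11.5%), and the E2F-like sequence TTTNNCGC was in 20 of 64 (31.2%, against 6.89%). The ZNF217 consensus, CAGAA preceded by A or T and then A or G and followed by any base but A, was in 11 of 64 (17.2%, 8.90 to 28.7), against 13.0%. It was found in 6 of the 47 promoters with peaks in both lines and in 3 of the 14 with a peak in MV4-11 only, and in 2 of the 3 without a peak in either line, which accounts for all 11. The background shares given here are those of all promoters in the table. Over the 15252 other protein-coding promoters they were 4.22% for the H1 box, 14.6% for GGTCCG and 9.40% for TATAAA. For the E2F-like sequence and the ZNF217 consensus they were 8.89% and 10.1%. A match is a description of the letters and not a binding site.

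**Figure D4:**
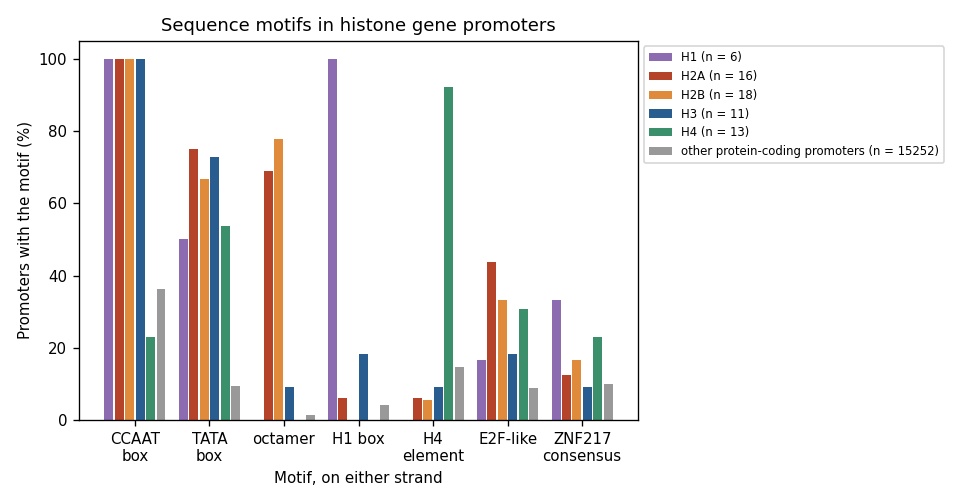
Share of promoters that hold each sequence motif on either strand (vertical axis, percent) for the 64 histone promoters in the RefSeq table by type and for 15252 other protein-coding promoters. The octamer bars are high for H2A and H2B, the H1 box for H1 (6 of 6) and the H4 element GGTCCG for H4 (12 of 13), while the ZNF217 consensus is in 11 of the 64.

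Histone promoters were also poor in G and C in the RefSeq window, of which most lies upstream of the start. Within 250 bases each side of the GENCODE start the median of all 69 genes was 51.1%, and other genes were not measured there. The median GC content was 43.2% over the 64 promoters, with 41.3% for H3, 42.0% for H2A, 42.2% for H2B, 48.0% for H4 and 49.5% for H1, against 63.0% for 15252 other protein-coding promoters. Among 1292 other genes with promoter GC in the middle range of the histone promoters (40.2 to 47.8%), a choice made after the data were seen, 24.7% (22.4 to 27.1) had a promoter peak in MV4-11 and 19.4% in U937. The histone genes in the table had 95.3% and 73.4%. Other single-exon protein-coding genes, a class to which many histone genes belong by structure, had promoter peaks at 168 of 923 (18.2%) in MV4-11 and at 142 (15.4%) in U937, against 51 and 38 of 53 single-exon histone genes.

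Histone genes outside the replication-dependent set were occupied unevenly. Of 11 replacement variants, 9 had a promoter peak in MV4-11 (81.8%, 48.2 to 97.7) and 8 in U937 (72.7%, 39.0 to 94.0). Both intervals include the share of all protein-coding genes (59.0% and 50.5%). H2AZ1 had peaks of 2027 and 1830 bp and H3-3A of 1876 and 1880 bp, and H2AX, the variant phosphorylated at DNA breaks, had 2169 bp in MV4-11 and 712 bp in U937. H1-10 had a peak in MV4-11 only (1146 bp), and MACROH2A2 was among those without a peak in either line. Of 14 germline and other variants found in the annotation, 0 had a peak in MV4-11 and 3 in U937, the near-identical X-linked copies H2AB1, H2AB2 and H2AB3, whose reads may be shared.

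Genes that regulate histone genes or process and carry their products had peaks in both lines almost throughout. Like the variant lists above, these lists were chosen with earlier results of these data known, so their shares describe the lists only. Of 24 genes for regulation and pre-mRNA processing, 23 had a promoter peak in each line (95.8%, 78.9 to 99.9, against 59.0% and 50.5% of all protein-coding genes) and 22 in both (91.7%, 73.0 to 99.0, against 47.4%). NPAT, the histone locus body factor, had 2053 bp in MV4-11 and 930 bp in U937, and SLBP, which binds the stem loop of histone messages, had 1611 and 2427 bp. HINFP, which binds H4 promoters, had 796 and 645 bp. LSM11, a subunit of the U7 processing particle, had a peak in MV4-11 only (455 bp), and COIL, the Cajal body protein coilin, in U937 only (1351 bp). Of 20 histone chaperone genes, 19 had a peak in both lines (interval 75.1 to 99.9%) and ATRX in neither. Of the 3 other protein-coding genes inside the cluster spans, BOLA1 and ENSG00000282988 had peaks in both lines, under the same peaks as histone genes, and HFE, an iron regulator, had none.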

How the data were processed

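CUT&Tag peak lists for ZNF217 in MV4-11 and U937 were used, with 1 library per line and lines taken from the sample titles. Per the submitters' notes and the methods, the authors aligned reads to hg38 with Bowtie2 2.4.4 and used MACS3 3.0 on paired-end fragments of each library, with a q-value limit of 0.01, to call peaks. The deposited values are positions in bp (other than a signal unit). Use of IgG as control, treatment of duplicate or multiply placed reads and the start counting base are not given in the sources used here, which leaves 1 bp of uncertainty.

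All 169 and 153 sequence names were in the reference, and 0 peaks passed a sequence end. A promoter was 1 kb each side of any transcript start of a protein-coding gene. A shared peak overlapped the other line by at least 1 bp. Repeated sequence was the share of 50-base windows found elsewhere in hg38. The counters were tested on simulated peaks. Intervals are exact (Clopper-Pearson) at the 95% level, and those of medians are from order statistics. The members, lists and named genes (all members, the printed promoters, list genes without a peak in a line) were chosen with earlier results of these data known, and further list genes were picked as examples after their values were seen. H2BU1 was not matched in the annotation. The values of 1 list gene are not reported here. SciPy 1.17.1, pandas 2.3.3, NumPy 2.4.6 and Matplotlib 3.10.9 were run under Python 3.11.15.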

Additional observations from a re-analysis of the deposited data

How the results depend on the processing

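Of 472 values computed under alternatives, 454 moved by less than their counting interval or by less than 1.5 times. Over all 69 genes, the number with a promoter peak lay between 58 and 67 for MV4-11 and between 47 and 52 for U937. With the peak midpoint required in the window, the large chromosome 1 cluster had 7 genes in MV4-11 and 7 in both lines, H2A genes in both lines numbered 8, and germline variants in U937 numbered 1. Germline variants with a U937 peak also numbered 1 with 500 bp each side, and with 3 kb each side 2 had an MV4-11 peak. With a peak over the gene start, chosen after the data were seen, 5 replacement and 0 germline variants remained in U937. Starts linked at less than 10 kb gave 22 groups, 21 with a peak in MV4-11, 16 in U937 and 16 in both. Reciprocal overlap of 50% left 73.0% of U937 peaks shared. With 3 kb each side, 8 MV4-11 and 0 U937 peaks lay away from histone promoters. Within 250 bases of GENCODE starts the E2F-like motif was in 56.5% of all histone promoters, 70.6% of H2A and 86.7% of H4. These causes were not tested. No paired analysis was possible because each line had 1 library, and no replicate could be left out. Peaks without heights or depth do not allow the strength of binding to be compared.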
